A study of Mus musculus with 16 samples.

Results

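Voltage-gated sodium and calcium channel genes were compared across celiac (labelled coelic) ganglia and neuroblastomas of mice. The members were the rows whose symbol names a sodium channel alpha or beta subunit (Scn) or a calcium channel alpha1, beta, gamma or alpha2delta subunit (Cacn) and that held at least 10 counts in 2 or more libraries. Of 39 rows with such a symbol, 37 met that minimum, of 24411 genes in the tables. Cacna1f and Cacng6 did not meet it. All 37 passed the filter on low counts and were tested. The table lists the alpha subunit gene Scn2a under its older symbol Scn2a1, which the symbol rule does not take, so its values are given once below, beside the alpha subunits.

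RNA-Seq was done on 16 libraries in 5 groups. Ganglia came from mice aged 2 weeks. They carried either no transgene or the human MYCN transgene in homozygous state, expressed from the tyrosine hydroxylase promoter (Th-MYCN), and the labels gave each as Runx1t1 wild-type or as heterozygous for an insertional Runx1t1 knockout. There were 4 ganglia without MYCN that were Runx1t1 wild-type and 3 that were Runx1t1 heterozygous. The Th-MYCN ganglia comprised 3 Runx1t1 wild-type and 2 Runx1t1 heterozygous samples. The remaining 4 samples were tumors of Th-MYCN homozygous, Runx1t1 wild-type mice, whose age the labels do not give. The promoter limits transgene expression to catecholaminergic cells, while each sample is a whole piece of tissue. The labels do not say which samples came from separate animals, so p-values measure the spread between these samples.

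Voltage-gated sodium channels (Nav) open on depolarization and carry the inward current of the action potential. One alpha subunit forms the whole pore, and beta subunits set its gating, its surface level and its adhesion to neighboring cells. Voltage-gated calcium channels (Cav) couple depolarization to calcium entry. Their alpha1 pores fall into an L-type family (Cav1), a presynaptic family (Cav2) that drives transmitter release, and a low-threshold family (Cav3), and the beta and alpha2delta subunits carry the pore to the membrane. In sympathetic neurons these channels serve firing and noradrenaline release.

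Libraries held 10692291 to 38618760 counts. The 6 libraries under 20000000 counts were all ganglia, while the tumors held at least 27096031. The mouse Runx1t1 gene lay between 8.47 and 13.1 CPM (read counts scaled by TMM-corrected library size) in the Runx1t1 wild-type ganglia without MYCN and between 13.1 and 18.2 CPM in those labelled heterozygous, so its level did not separate the genotype labels. In Th-MYCN ganglia it was 23.4 to 243 CPM (wild-type) and 25.3 to 49.9 CPM (heterozygous), and in tumors 123 to 227 CPM. The human transgene has no row of its own. One library stood apart, replicate 2 of the Runx1t1 wild-type ganglia without MYCN. Its TPM (transcript abundance scaled by length and library) summed over 7 lymphocyte markers was 632, against at most 7.12 in any other library, and its sum over 18 sympathetic neuron markers was 8403, against 14667 to 23891 in the other ganglia without MYCN. Its myeloid, endothelial and proliferation marker sums were 2104, 524 and 353 TPM. The other ganglia without MYCN held at most 138, 311 and 94.3 TPM of these. Several results that this library or another one decides are given with and without it, and the rest are only counted among the alternatives.

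The RefSeq promoter windows (250 bases before to 50 after the start, GRCm38.p6) of several members with wide differences are printed 5′ to 3′ on the gene's strand, to show where their transcripts begin. Scn11a, Scn7a, Scn2b and Cacna2d3 were among the 5 largest falls in tumors of called members averaging at least 1 TPM, and Cacnb2 and Cacna1d among the 5 largest rises. Capitals mark CAGATG (on the other strand CATCTG), an E-box form read by neural basic helix-loop-helix factors.
Scn11a, chr9:119825407-119825706, minus strand: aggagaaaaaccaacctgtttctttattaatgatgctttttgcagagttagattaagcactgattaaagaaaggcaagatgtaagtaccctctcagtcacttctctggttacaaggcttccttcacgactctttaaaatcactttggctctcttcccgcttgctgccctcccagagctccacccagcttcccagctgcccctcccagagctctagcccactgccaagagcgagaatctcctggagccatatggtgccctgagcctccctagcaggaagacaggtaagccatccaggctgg
Scn7a, chr2:66784861-66785160, minus strand: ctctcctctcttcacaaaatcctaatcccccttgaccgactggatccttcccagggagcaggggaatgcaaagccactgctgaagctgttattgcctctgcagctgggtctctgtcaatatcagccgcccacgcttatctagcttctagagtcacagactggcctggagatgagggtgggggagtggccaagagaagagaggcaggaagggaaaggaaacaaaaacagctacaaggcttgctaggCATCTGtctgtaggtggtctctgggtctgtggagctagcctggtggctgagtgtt
Scn2b, chr9:45117626-45117925, plus strand: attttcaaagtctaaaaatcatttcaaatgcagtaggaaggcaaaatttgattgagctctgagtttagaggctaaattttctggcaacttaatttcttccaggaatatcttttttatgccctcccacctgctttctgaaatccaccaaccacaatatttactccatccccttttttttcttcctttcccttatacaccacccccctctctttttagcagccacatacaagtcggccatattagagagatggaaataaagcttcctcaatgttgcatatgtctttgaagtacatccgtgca
Cacna2d3, chr14:29721815-29722114, minus strand: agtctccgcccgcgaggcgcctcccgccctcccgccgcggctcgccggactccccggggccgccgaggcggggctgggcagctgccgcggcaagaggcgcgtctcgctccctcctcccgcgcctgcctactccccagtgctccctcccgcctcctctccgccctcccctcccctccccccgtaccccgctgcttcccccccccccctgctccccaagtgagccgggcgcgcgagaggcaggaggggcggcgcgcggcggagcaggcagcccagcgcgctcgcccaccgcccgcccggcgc
Cacnb2, the downstream of its start sites with a listed window, chr2:14823842-14824141, plus strand: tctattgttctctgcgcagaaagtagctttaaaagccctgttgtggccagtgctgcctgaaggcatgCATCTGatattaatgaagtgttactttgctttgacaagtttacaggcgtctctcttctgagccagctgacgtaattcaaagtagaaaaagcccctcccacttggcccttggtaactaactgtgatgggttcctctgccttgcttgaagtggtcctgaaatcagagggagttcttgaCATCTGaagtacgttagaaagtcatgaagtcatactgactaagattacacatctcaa
Cacna1d, the upstream start site, chr14:30491107-30491406, minus strand: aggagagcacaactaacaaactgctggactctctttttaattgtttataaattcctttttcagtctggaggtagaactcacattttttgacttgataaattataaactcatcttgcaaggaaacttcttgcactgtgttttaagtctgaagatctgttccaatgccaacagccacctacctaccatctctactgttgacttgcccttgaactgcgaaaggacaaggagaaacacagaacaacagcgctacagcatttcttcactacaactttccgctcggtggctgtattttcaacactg

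RefSeq windows were at hand for 27 of the 37 members, which had 37 windows in all. Both strands were searched for 3 motifs. CAGATG or CATCTG stood in 6 of the 37 windows (16.2%), against 17.2% of the 32851 windows of all genes. The E-box CACGTG, the form that MYC family proteins bind best, was in 0 of the 37 windows and in 7.15% of all windows. CAGCACC or its reverse complement GGTGCTG, the left part of the RE1 element bound by the neuronal repressor REST, was in 0 of the 37 windows and in 7.14% of all. None of the 3 motifs contains another, and these matches describe the letters of these windows only. The median GC content of the members' windows was 61%, against 52.7% over all windows.

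The members lie mostly in long genes and partly in clusters (GENCODE positions, GRCm38). Their median span was 110510 bases, against 23215 bases for 15957 tested genes with a single position, and the widest, Cacna2d3, spanned 816922 bases. The minus strand of chromosome 2 holds Scn3a (chr2:65457118-65567627). Further along the same strand lie Scn1a (chr2:66270778-66440840), Scn9a (chr2:66480080-66634962) and Scn7a (chr2:66673425-66784914), close to each other. Chromosome 9 holds Scn10a (chr9:119608456-119719322) and Scn11a (chr9:119753759-119825456) side by side, and further the beta subunit pair Scn2b (chr9:45117782-45130070) and Scn4b (chr9:45138395-45154152). Cacng1, Cacng4 and Cacng5 neighbor each other on chromosome 11, and Cacng4 and Cacng5 differed in opposite directions in tumors, as described below.

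In ganglia without MYCN, some members of each class stood far above the others. TPM is scaled by transcript length and so sets genes side by side. Cacnb3, a beta subunit common in neurons, was the highest member in the 4 Runx1t1 wild-type ganglia without MYCN at 172 ± 59.2 TPM (SD, n = 4). It was followed by Cacnb1 at 114 ± 42.0, Scn3b at 106 ± 49.6, Scn2b at 101 ± 39.6 and Scn7a at 90.2 ± 63.9 TPM, neighbors in order that lay within their spread. Scn9a, whose product Nav1.7 sets the firing threshold of sensory and sympathetic neurons, was the highest pore-forming sodium channel gene at 74.8 ± 30.2 TPM. Cacna1b, the N-type pore that carries most of the calcium for sympathetic transmitter release, was the highest calcium channel pore at 68.4 ± 31 TPM. At the other end, Cacna1s, Cacng1 and Cacna2d4 stayed under 1.3 TPM in each of the 16 libraries.

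**Figure D1:**
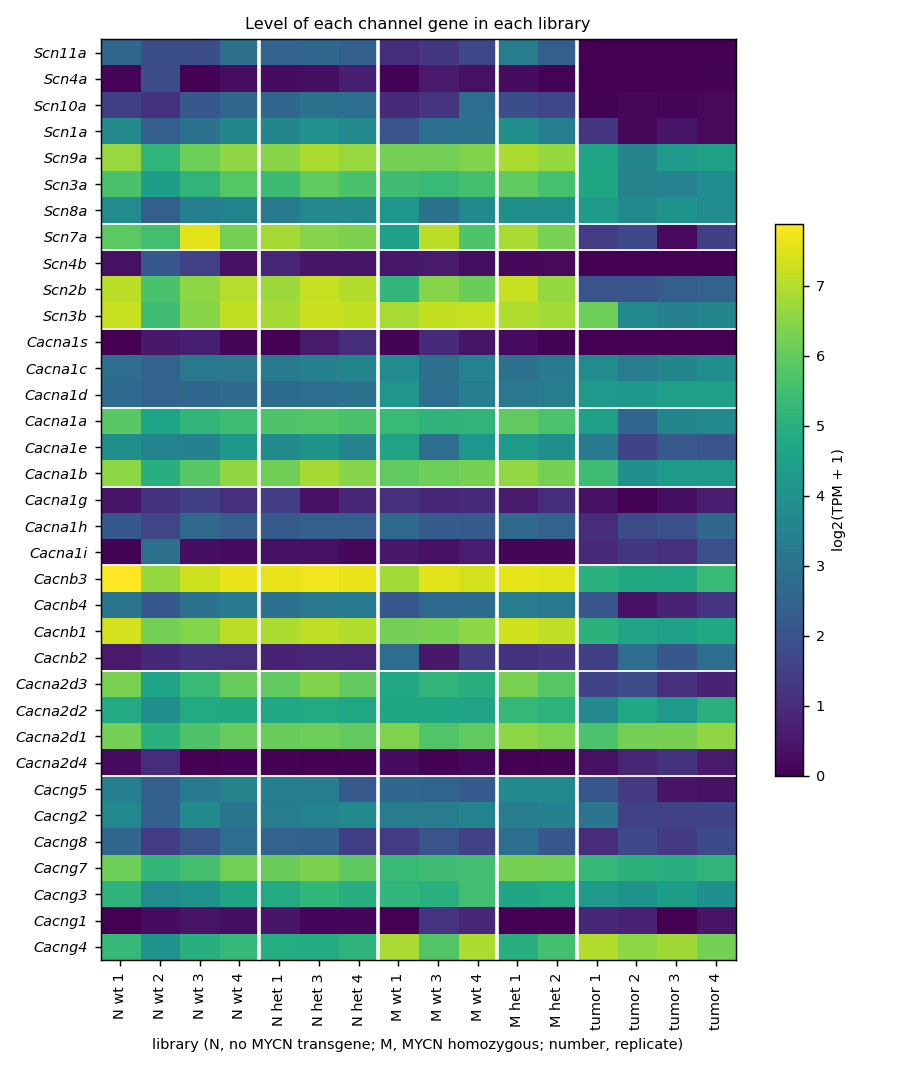
Level of 35 channel genes (rows, by subunit class) in each of the 16 libraries (columns), as log2(TPM + 1), from dark (0) to yellow. The 4 tumor columns are darker than the ganglia for most sodium channel rows, for Cacnb3, Cacnb1 and Cacna2d3, and brighter for Cacna1d. For Cacng4 they are brighter than the ganglia without MYCN but overlap the Th-MYCN ganglia.

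The first comparison asked how channel genes of tumors differ from those of ganglia without MYCN, both Runx1t1 wild-type. Most sodium channel genes, the Cav2 pores and most calcium channel beta subunits were lower in tumors, while the L-type pores Cacna1d and Cacna1c, the sodium channel pore gene Scn8a and the auxiliary genes Cacnb2, Cacna2d1 and Cacng4 were higher. By edgeR's quasi-likelihood test with Benjamini-Hochberg adjustment over 16665 genes at a threshold of 0.05, 27 of 37 members were called, 6 higher and 21 lower in tumors. Over all genes tested, 57.6% were called, 26.9% higher and 30.7% lower. The median log2 fold change was -1.24 over the members and -0.11 over all genes. The comparison is between whole tissues, so fewer cells of a type and less RNA per cell cannot be told apart.

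**Figure D2:**
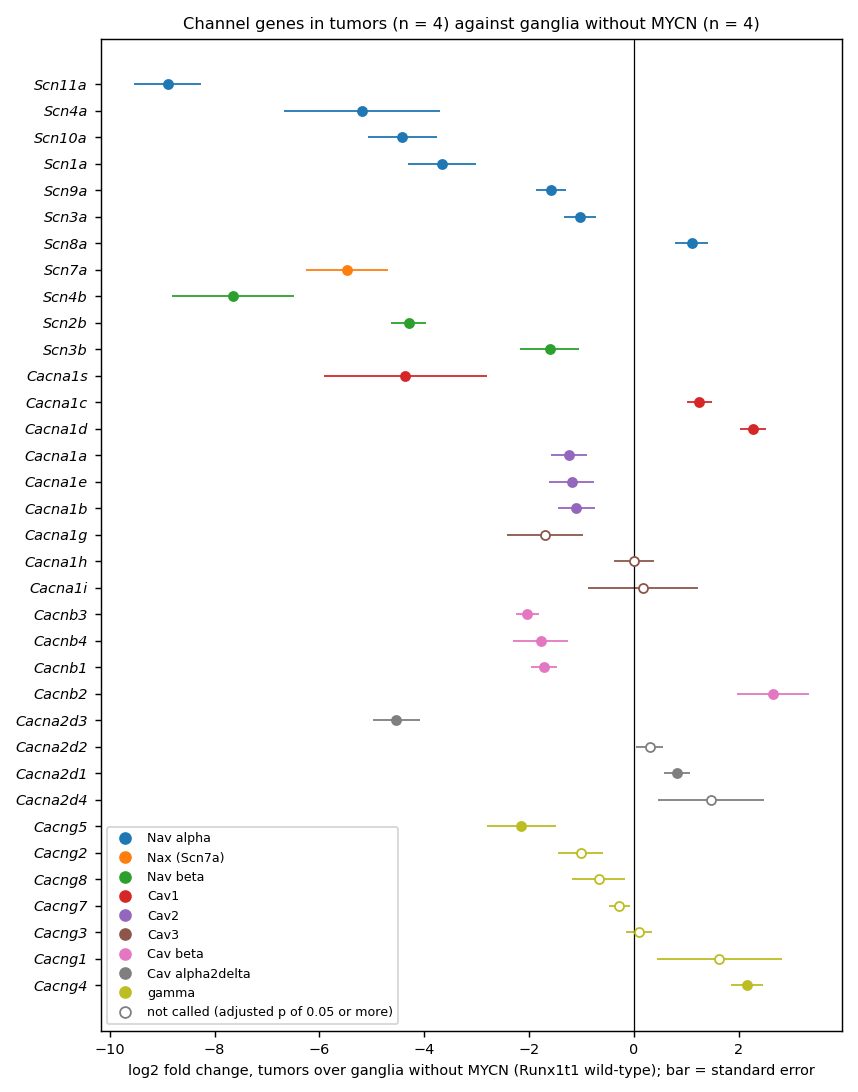
Log2 fold change of 35 channel genes, tumors (n = 4) over Runx1t1 wild-type ganglia without MYCN (n = 4), from edgeR, with its standard error as a bar and color by subunit class. Filled points are the 25 of them called at an adjusted p under 0.05, of which 19 lie left of 0 and 6 lie right of it.

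Markers of cell types also differed in this comparison. Of 12 markers of satellite and Schwann glia, 10 were called, all lower in tumors. Their summed TPM was 4543 to 7987 in the Runx1t1 wild-type ganglia without MYCN and 944 to 3996 in tumors. All 8 fibroblast markers were called lower, with sums of 1991 to 8220 and 181 to 546 TPM. All 8 proliferation markers were called higher, with sums of 86.0 to 353 TPM in these ganglia and 1512 to 1881 TPM in tumors. Of 18 sympathetic neuron markers, 15 were called, 4 higher and 11 lower, and their sums were 8403 to 23621 TPM in these ganglia and 4874 to 13244 TPM in tumors. Tumor replicate 1 had the highest neuron marker sum among the tumors, 13244 TPM, and the other tumors had at most 6493. Of 6 adrenal cortex markers tested, 5 were called lower in tumors, with sums of 6.48 to 101 TPM in these ganglia. Of the endothelial markers 5 of 8 and of the lymphocyte markers 4 of 6 tested were also called lower. The lymphocyte sum was 632 TPM in ganglion replicate 2 and 2.47 to 5.88 TPM in the other ganglia of this comparison. Tumors held 2.09 to 7.12 TPM, so apart from replicate 2 the lymphocyte sums overlapped. Of 5 chromaffin cell markers, 3 were called, 1 higher and 2 lower. Their sums were 2305 to 6646 TPM in these ganglia and 671 to 1883 TPM in tumors. The median log2 fold change over the 5 was 0.97, so the lower sum does not describe most of these markers. The part of these differences in the channel results was not tested.

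Pore-forming sodium channel genes described here were called lower in tumors, except Scn8a, which was higher. In the 4 ganglia Scn9a was 413, 152, 279 and 369 CPM. In the 4 tumors it was 131, 62.5, 94.5 and 119 CPM. Each tumor lay below each ganglion, and Scn9a fell by 1.58 on the log2 scale (SE 0.28, edgeR adjusted p = 3.54e-04).

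Scn3a, a pore gene prominent in developing neurons, was 191, 87.7, 137 and 211 CPM in the ganglia. It was 126, 57.7, 53.0 and 70.8 CPM in the tumors, so that the groups overlapped, and it fell by 1.03 (SE 0.30, edgeR adjusted p = 0.0094). Scn8a, which encodes Nav1.6, the main channel of mature initial segments and nodes, went the other way. It was 61.4, 21.4, 44.5 and 48.2 CPM in ganglia and 122, 82.3, 91.6 and 82.2 CPM in tumors. The groups did not overlap, with a log2 fold change of 1.10 (SE 0.32, edgeR adjusted p = 0.00905).

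The nociceptor-type channel genes Scn10a and Scn11a, which encode the tetrodotoxin-resistant channels Nav1.8 and Nav1.9, were near the floor in tumors. Scn11a was 12.4, 6.94, 6.21 and 14.9 CPM in ganglia. In tumors it was 0.0388 and 0.0282 CPM in replicates 1 and 2 and 0 in the others, 2 counts in all. By pooled CPM the ganglia held 663 times the tumor level (exact 95% interval 183 to 5487, counting error only). Ganglia and tumors were far apart. Scn10a was 4.72, 3.56, 8.85 and 13.4 CPM in ganglia and 0.116, 0.452, 0.285 and 0.533 CPM in tumors, which placed each tumor below each ganglion. It fell by 4.42 (SE 0.66, edgeR adjusted p = 8.75e-05). Scn1a, a pore gene of inhibitory neurons, fell by 3.65 (SE 0.65). Tumor replicate 1 held 6.37 CPM of Scn1a and the others 0.593 to 1.61, and without replicate 1 the log2 fold change of Scn1a was -4.90. Scn4a, the skeletal muscle pore gene, rested on a single ganglion: replicate 2 held 7.72 CPM and the other ganglia at most 0.561. Its log2 fold change was -5.19 (edgeR adjusted p = 0.00867) with that library and -2.41 (edgeR adjusted p = 0.0775) without it.

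Scn2a1, outside the symbol rule, was 38.4 to 86.3 CPM in these ganglia and 21.4 to 53.0 CPM in tumors, a log2 fold change of -1.09 (SE 0.29, edgeR adjusted p = 0.00609). It encodes Nav1.2, a pore of unmyelinated axons and young neurons.

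Scn7a encodes Nax, a sodium channel relative that senses sodium concentration in place of voltage. It was 175, 145, 549 and 214 CPM in ganglia and 6.48, 9.72, 0.607 and 7.53 CPM in tumors. Each tumor was far below each ganglion, and the gene fell by 5.47 (SE 0.78, edgeR adjusted p = 6.34e-05). Ganglion replicate 3 was the highest, and without it the log2 fold change was -4.87 (edgeR adjusted p = 1.72e-04). Scn7a is also expressed by glia, whose markers were lower in tumors as given above. Among tumors, however, replicate 3 had the lowest Scn7a and the highest glial marker sum, 3996 TPM. Ganglion replicate 3 had the highest glial and fibroblast marker sums of these ganglia, 7987 and 8220 TPM. The part of these cell types in the Scn7a result was not tested.

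The sodium channel beta subunit genes Scn2b, Scn3b and Scn4b were called lower in tumors. Scn2b was 244, 95.5, 170 and 229 CPM in ganglia and 7.77, 8.02, 9.96 and 11.7 CPM in tumors. The tumors lay close together and far below the ganglia, with a log2 fold change of -4.30 (SE 0.33, edgeR adjusted p = 8.56e-07). Scn4b, low in ganglia at 0.473 to 6.33 CPM, held 1 count in all 4 tumors together. The pooled ratio of ganglia to tumors was 266 (exact 95% interval 47.2 to 10573), a value to which ganglion replicates 2 and 3 contributed 73 and 89 of 184 counts.

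Scn3b, the beta subunit that pairs with tetrodotoxin-sensitive pores of young neurons, was uneven among tumors. It was 248, 78.0, 148 and 229 CPM in ganglia. In tumors it was 156 CPM in replicate 1 and 27.5, 21.6 and 25.4 CPM in the others. Replicate 1 lay within the range of the ganglia and the other tumors below it. The log2 fold change was -1.61 (SE 0.56, edgeR adjusted p = 0.0246), and -2.82 (edgeR adjusted p = 2.30e-05) without tumor replicate 1. The call of Scn3b was lost without ganglion replicate 1 or 4 or tumor replicate 2, 3 or 4 (edgeR adjusted p of 0.0577 to 0.0658). It was also lost with only the groups compared and with only libraries over 20000000 counts (edgeR adjusted p of at most 0.0880).

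Of the 3 Cav1 calcium channel pores, 2 were called higher and 1 lower in tumors. Cacna1d, the L-type pore Cav1.3 that opens at relatively low voltage and supports pacemaking, was 22.0, 18.8, 19.0 and 20.7 CPM in ganglia and 91.9, 90.4, 101 and 107 CPM in tumors. Both groups were narrow and far apart, with a log2 fold change of 2.28 (SE 0.25, edgeR adjusted p = 1.10e-05). Cacna1c, the L-type pore Cav1.2, was 34.5, 28.5, 43.8 and 43.6 CPM in ganglia and 100, 71.8, 82.6 and 104 CPM in tumors, again without overlap, with a log2 fold change of 1.25 (SE 0.23, edgeR adjusted p = 4.92e-04). Cacna1s, the skeletal muscle L-type pore, was 0 to 1.59 CPM in ganglia and at most 0.0847 CPM in tumors. The tumors held 4 counts in all, and the pooled ratio of ganglia to tumors was 23.5 (exact 95% interval 8.76 to 88.9). The call was lost without ganglion replicate 3, without tumor replicate 1, 3 or 4, and with replicate number as a block (edgeR adjusted p of 0.0513 to 0.0747). Of 7 skeletal muscle markers tested, 3 were called lower in tumors. The muscle marker sum was 133 TPM in ganglion replicate 3, which had the highest Cacna1s of these ganglia, 14.6 to 29.0 TPM in the others and 5.3 to 19.3 TPM in tumors, and its part in the Cacna1s result was not tested.

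The 3 Cav2 pores were called lower in tumors. Cacna1b was 377, 132, 225 and 365 CPM in ganglia and 231, 80.6, 97.8 and 101 CPM in tumors. Tumor replicate 1 was within the ganglion range and the remaining tumors were below it, with a log2 fold change of -1.10 (SE 0.35, edgeR adjusted p = 0.0162). Leaving out ganglion replicate 1 ended the call (edgeR adjusted p = 0.0518), as did a fit of only the groups compared (edgeR adjusted p = 0.0585). Cacna1a, the P/Q-type pore, was 185, 80.1, 112 and 131 CPM in ganglia and 92.4, 21.6, 47.0 and 54.1 CPM in tumors. Only tumor replicate 1 reached the ganglion range, and Cacna1a fell by 1.24 (SE 0.34, edgeR adjusted p = 0.00727). Cacna1e, the R-type pore, fell by 1.18 (SE 0.43, edgeR adjusted p = 0.0295), a call that was lost without ganglion replicate 1 or 4 and without tumor replicate 2, 3 or 4. The call was also lost with a depth term and with only libraries over 20000000 counts. In the fits that lost it, the edgeR adjusted p was at most 0.112.

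Of the 3 Cav3 pores edgeR called 0, with 1 at an unadjusted p under 0.05 (Cacna1g), which DESeq2 called. Cacna1h was 11.8, 7.80, 18.8 and 13.8 CPM in ganglia and 4.78, 12.1, 12.3 and 23.5 CPM in tumors. The ranges overlapped throughout, with a log2 fold change of 0.01 (SE 0.38). Cacna1i was 0.240, 28.7, 1.02 and 0.650 CPM in ganglia and 4.93, 8.05, 5.67 and 15.4 CPM in tumors. Each tumor was above 3 of the ganglia and below replicate 2, the library with the high lymphocyte and myeloid markers. The log2 fold change over all libraries was 0.17 (SE 1.05, edgeR adjusted p = 0.901). Without that replicate the log2 fold change was 3.71 (edgeR adjusted p = 1.86e-04). In all, 29 members were called without it, against 58.7% of all genes: Cacna1i, Cacna2d4 and Cacng2 were added and Scn4a was lost.

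Of the calcium channel beta subunits, which release the pore from retention and shape its gating, 3 were called lower and 1 higher. Cacnb3 was 240, 110, 155 and 196 CPM in ganglia and 43.9, 37.8, 35.3 and 53.8 CPM in tumors. Each tumor was below each ganglion, and Cacnb3 fell by 2.04 (SE 0.22, edgeR adjusted p = 8.49e-06). Cacnb1 was 166, 78.5, 89.0 and 142 CPM in ganglia and 46.1, 29.7, 26.3 and 42.5 CPM in tumors, also without overlap, and fell by 1.72 (SE 0.24, edgeR adjusted p = 5.71e-05). Cacnb4 fell by 1.78 (SE 0.52), and by 2.67 without tumor replicate 1, and the call was lost with only the groups compared (edgeR adjusted p = 0.0519).

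Cacnb2, the beta subunit best known from heart, was 0.720, 1.47, 1.94 and 1.71 CPM in ganglia and 3.73, 13.1, 7.17 and 13.1 CPM in tumors. It rose by 2.65 on the log2 scale (SE 0.68, edgeR adjusted p = 0.00463), and no tumor was within the ganglion range. It remained a minor beta subunit gene, at 4.36 ± 2.12 TPM in tumors against 30.6 ± 6.01 TPM for Cacnb3 (SD, n = 4).

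The alpha2delta genes, whose extracellular products raise channel number at the surface and are the targets of gabapentin in the case of the first members, split. Cacna2d3 was 115, 36.2, 56.3 and 92.4 CPM in ganglia and 4.12, 5.28, 2.14 and 1.35 CPM in tumors. Even the lowest ganglion was above each tumor, with a log2 fold change of -4.54 (SE 0.45, edgeR adjusted p = 5.10e-06). Cacna2d1 was 227, 107, 157 and 192 CPM in ganglia and 201, 315, 301 and 388 CPM in tumors, where the groups overlapped through tumor replicate 1 and ganglion replicate 1. It rose by 0.82 (SE 0.25, edgeR adjusted p = 0.0119), a call that was lost with replicate number as a block in a fit of these 2 groups alone (edgeR adjusted p = 0.0599). Cacna2d2 and Cacna2d4 were not called, with log2 fold changes of 0.30 (SE 0.25) and 1.47 (SE 1.01). For Cacna2d4 ganglion replicate 2 again stood apart at 2.69 CPM, within the tumor range of 0.932 to 3.82 CPM, and without it the log2 fold change was 3.60 (edgeR adjusted p = 0.00511). With replicate number as a block the log2 fold change of Cacna2d4 was 2.80 over all groups (edgeR adjusted p = 0.0459) and 2.41 over these 2 groups alone (edgeR adjusted p = 0.159).

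Of the 7 gamma genes, most of which encode auxiliary proteins of AMPA receptors and not mainly calcium channel subunits, 2 were called. Cacng4 was 12.2, 5.46, 9.73 and 12.1 CPM in ganglia and 55.2, 42.3, 45.7 and 33.4 CPM in tumors. The groups were far apart, with a log2 fold change of 2.16 (SE 0.31, edgeR adjusted p = 6.93e-05). Its neighbor Cacng5 fell by 2.15 (SE 0.65, edgeR adjusted p = 0.0123), and by 3.05 without tumor replicate 1, and the call was lost with only libraries over 20000000 counts (edgeR adjusted p = 0.0557). Cacng7 was 17.4, 10.1, 12.2 and 18.3 CPM in ganglia and 13.3, 11.9, 10.1 and 12.5 CPM in tumors, ranges that overlapped, with a log2 fold change of -0.28 (SE 0.19).

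**Figure D3:**
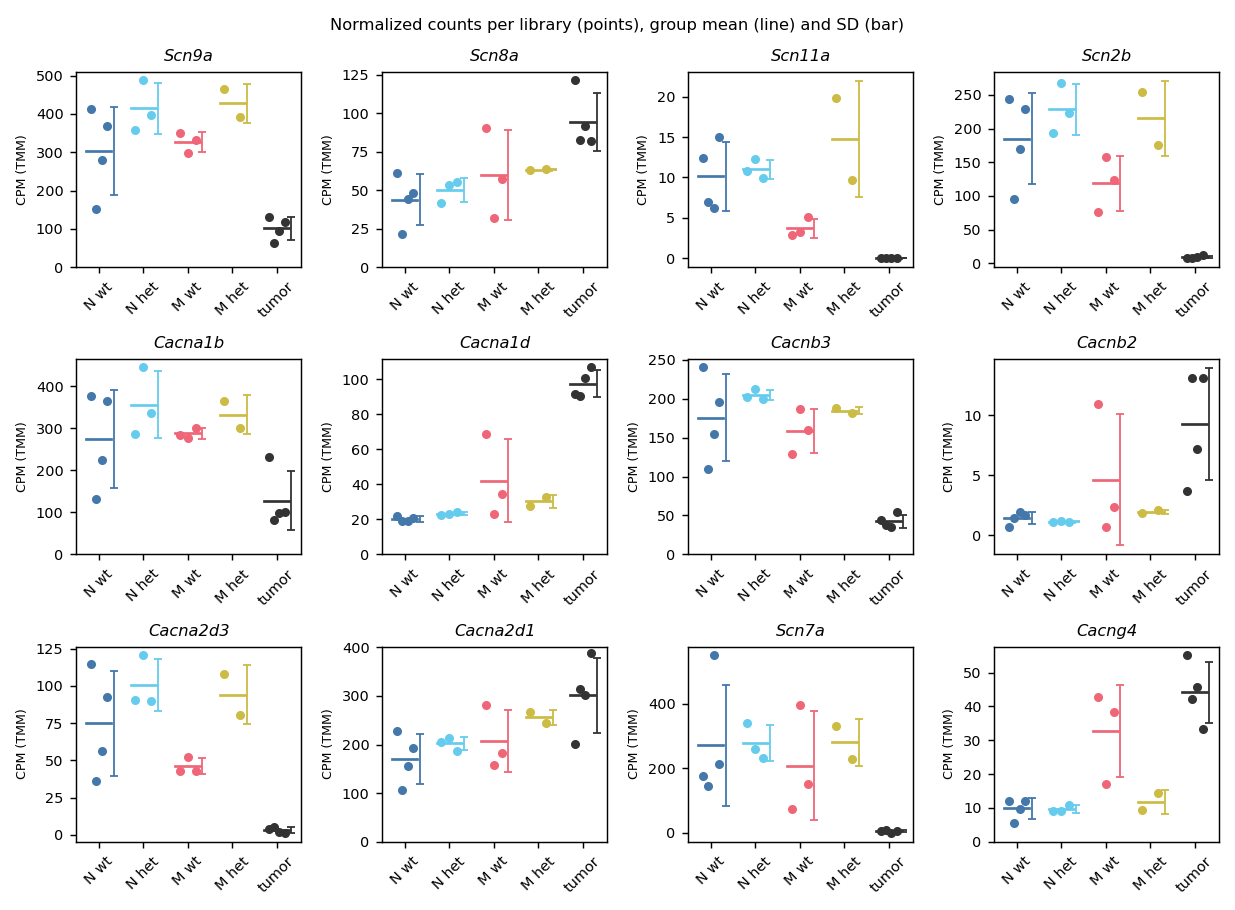
TMM-scaled CPM of 12 named channel genes in each library (points), with group means (lines) and SD (bars). N and M stand for ganglia without MYCN and with homozygous MYCN, wt and het for the Runx1t1 label. For Scn2b, Scn11a, Cacna2d3 and Cacnb3 each tumor lies below each ganglion, and for Cacna1d each tumor lies above each ganglion.

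Counted over libraries and not by a test, 12 of 37 members (32.4%) were lower in each of the 4 tumors than in each of the 12 ganglia, against 16.1% of all 16665 genes. Among them were Scn1a, Scn9a, Scn10a, Scn11a, Scn7a, Scn2b, Scn4b, Cacnb1, Cacnb3 and Cacna2d3. In the other direction 1 member (2.7%), Cacna1d, was higher in each tumor than in each ganglion, against 14.4% of all genes. Set against the 7 ganglia without MYCN only, 5 members (13.5%) were higher in each tumor, namely Scn8a, Cacna1c, Cacna1d, Cacnb2 and Cacng4, against 22.7% of all genes.

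The same genes can be read as the make-up of each class. Of the TPM of all Cav alpha1 pores, the Cav1 family took 6.58, 11.6, 11.0 and 7.99% in the Runx1t1 wild-type ganglia without MYCN and 29.6, 51.2, 45.9 and 44.7% in tumors. The Cav2 family took 84.8 ± 6.59% in these ganglia and 50.5 ± 12.2% in tumors (SD, n = 4 each). In TPM sums, Cav1 pores were 14.0 ± 2.87 in the 7 ganglia without MYCN and 31.2 ± 3.23 in the 4 tumors, a ratio of 2.22, and Cav2 pores 135 ± 39.9 and 40.5 ± 22.0, a ratio of 0.300. The Cav1 share was lowest in tumor replicate 1, the tumor with the highest neuron marker sum.

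Among sodium channel pores, the Scn8a share of the class TPM was 7.06, 5.75, 7.36 and 5.62% in the Runx1t1 wild-type ganglia without MYCN and 28, 36.3, 33.9 and 26.6% in tumors. The Scn9a share was 51.1 ± 3.51% and 37.7 ± 5.60%, and that of Scn3a 27.5 ± 1.38% and 28.7 ± 4.70% (SD, n = 4 each). The class sum itself was 166 ± 50.6 TPM in the 7 ganglia without MYCN and 49.3 ± 14.2 TPM in tumors, so that a larger Scn8a share stood within a smaller sum. Cacna2d1 took 43.2 ± 2.26% of the alpha2delta TPM in these 4 ganglia and 75.6 ± 2.89% in tumors, while Cacna2d3 went from 37.5 ± 5.77% to 1.87 ± 1.25%. The sum of the alpha2delta class was lower in tumors in TPM, 0.675 of that in the ganglia without MYCN, and higher in CPM, 1.14 of it, so no direction is given for that sum.

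**Figure D4:**
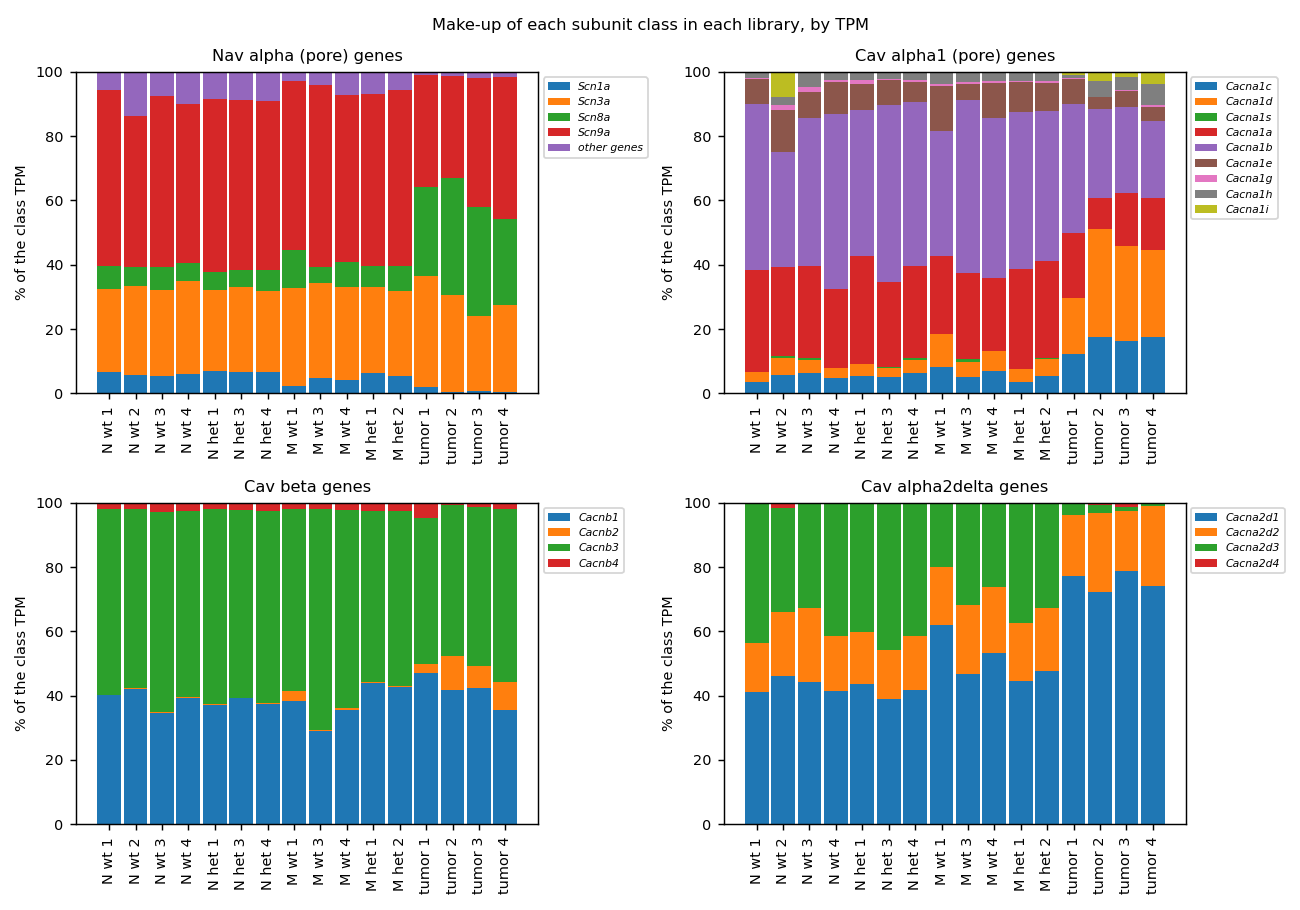
Percent of the class TPM held by each gene in each library (the low sodium channel pore genes pooled as other genes), for the sodium channel pores, calcium channel pores, calcium channel beta subunits and alpha2delta subunits. N and M stand for ganglia without MYCN and with homozygous MYCN. In the tumor columns the Scn8a share is 26.6 to 36.3%, and Cacna2d3 takes at most 3.27% of its class.

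The second comparison asked how these genes differ with MYCN in ganglia at 2 weeks. In Runx1t1 wild-type ganglia 1 member, Cacng4, was called by edgeR, higher with MYCN. Over all genes 0.912% were called, 0.816% higher and 0.096% lower, and 8 members (21.6%) had an unadjusted p under 0.05, against 19.8% of all genes. Cacng4 was 42.6, 17.1 and 38.3 CPM in the 3 Th-MYCN ganglia and 5.46 to 12.2 CPM in the 4 ganglia without MYCN. The groups did not overlap, with a log2 fold change of 1.72 (SE 0.32, edgeR adjusted p = 0.0392). The call was lost when any of 5 of the 7 libraries compared was left out, with log2 fold changes of 1.49 to 1.84 and edgeR adjusted p of 0.0852 to 0.258 in those fits. It was also lost with replicate number as a block, with only the groups compared and with only libraries over 20000000 counts. Each of these alternatives called 0% of all genes in this comparison.

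The L-type pores were not called by edgeR. Cacna1d was 68.6, 22.9 and 34.4 CPM in Th-MYCN ganglia and 18.8 to 22.0 CPM without MYCN, without overlap, a log2 fold change of 1.06 (SE 0.26, edgeR adjusted p = 0.0658). DESeq2 called 3 members in this comparison, Cacna1d, Cacng4 and Scn11a, against 7.71% of all genes. Cacna1c was 85.1, 36.5 and 58.9 CPM with MYCN, a log2 fold change of 0.68 (SE 0.25, edgeR adjusted p = 0.165). Replicate 1 of the Th-MYCN ganglia was the highest for both genes, for Cacng4 and for Cacnb2 (10.9 CPM, against 0.687 and 2.35 CPM in replicates 3 and 4). The same library had a proliferation marker sum of 1282 TPM and a neuron marker sum of 12765 TPM, the latter the lowest of its group. The part of these differences was not tested.

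Scn2b, Cacna2d3 and Scn11a, far lower in tumors, were not called by edgeR between Th-MYCN and transgene-free Runx1t1 wild-type ganglia. In this comparison edgeR called only 0.912% of all genes, and DESeq2 called Scn11a, as given above. Scn2b was 75.7, 157 and 123 CPM with MYCN, a log2 fold change of -0.64 (SE 0.31, edgeR adjusted p = 0.277). Cacna2d3 was 42.9, 52.1 and 43.0 CPM, within the range of the ganglia without MYCN, with a log2 fold change of -0.70 (SE 0.42, edgeR adjusted p = 0.37). Scn11a was 2.84, 3.24 and 5.06 CPM, each below the lowest ganglion without MYCN at 6.21 CPM, with a log2 fold change of -1.44 (SE 0.45, edgeR adjusted p = 0.118). Scn9a, Scn3a, Cacna1a and Cacna1b had log2 fold changes of 0.11, 0.16, -0.08 and 0.07.

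In Runx1t1-heterozygous ganglia, 2 samples with MYCN against 3 without, edgeR called 0 members and 0% of all genes, with 0 members and 1.43% of all genes at an unadjusted p under 0.05. DESeq2 called 0 members and 0.084% of all genes. Cacng4 was 9.22 and 14.4 CPM with MYCN and 8.97, 9.13 and 11.0 CPM without, with a log2 fold change of 0.28 (SE 0.39). Cacna1d was 27.8 and 33 CPM with MYCN and 22.5, 22.9 and 24.2 CPM without, a log2 fold change of 0.39 (SE 0.31). Both libraries with MYCN in this comparison held under 20000000 counts.

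The third comparison set Th-MYCN ganglia against tumors, which share the transgene genotype. From Runx1t1 wild-type Th-MYCN ganglia, 19 of 37 members differed by edgeR, 18 higher in ganglia and 1 lower, against 34.4% of all genes called, 20.4% higher and 14% lower. The median log2 difference, ganglia over tumors, was 1.3 over the members and 0.01 over all genes. The 18 included the beta subunit genes Scn2b, Scn3b and Scn4b and the 3 Cav2 pores. Leaving out single libraries ended the calls of Scn3b (tumor replicate 4 or ganglion replicate 3), Cacna1a (tumor 3 or 4, ganglion 1 or 3), Cacna1b (tumor 2, 3 or 4, ganglion 3 or 4) and Cacna1e (tumor 2, 3 or 4, ganglion 1 or 4), with edgeR adjusted p of at most 0.120 in those fits. In all, 5 of the 19 called members lost the call in some alternative. Scn9a was 349, 299 and 332 CPM in these ganglia, each more than the highest tumor (131 CPM), a log2 difference of 1.68 (SE 0.30, edgeR adjusted p = 9.08e-04). Scn2b differed by 3.66 (SE 0.33, edgeR adjusted p = 5.73e-06) and Cacna2d3 by 3.84 (SE 0.45, edgeR adjusted p = 4.26e-05).

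The member that was lower in these ganglia than in tumors was Cacna1d, by 1.22 on the log2 scale (a difference of -1.22, SE 0.27, edgeR adjusted p = 0.00357). Each of the 3 ganglia, at 22.9 to 68.6 CPM, was under the lowest tumor at 90.4 CPM. Cacng4, at 17.1 to 42.6 CPM in these ganglia and 33.4 to 55.2 CPM in tumors, overlapped, with a difference of -0.44 (SE 0.32, edgeR adjusted p = 0.318). A p above the threshold does not show that the levels were alike.

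For Runx1t1-heterozygous Th-MYCN ganglia against the same tumors, 25 members were called, 20 higher and 5 lower in ganglia, against 45.4% of all genes, 23.4% higher and 22% lower. The 5 lower were Cacna1c, Cacna1d, Cacng4, Cacna1i and Cacna2d4. Cacng4 differed by -1.91 (SE 0.40, edgeR adjusted p = 0.00179), Cacna1d by -1.68 (SE 0.32, edgeR adjusted p = 8.98e-04) and Cacna1c by -1.09 (SE 0.30, edgeR adjusted p = 0.00881). Without heterozygous replicate 1 the call of Cacna1c was lost (log2 difference -0.91, edgeR adjusted p = 0.112). The call of Cacna1i was lost when any of the 6 libraries compared was left out. In all, 11 of the 25 called members lost the call in some alternative. Cacna2d4 had 1 count in these ganglia and 273 in the tumors, a pooled ratio of tumors to ganglia of 59.4 (exact 95% interval 10.6 to 2355), and a call that was lost without either ganglion. This comparison and the previous one share the 4 tumors. Without heterozygous replicate 1, 15 members were called, against 24.9% of all genes.

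Markers of cell types also differed in both comparisons of Th-MYCN ganglia with tumors. In each comparison 10 of 12 glial and 7 of 8 fibroblast markers were called higher in ganglia. Glial sums were 3784 to 7649 TPM in the wild-type and 5376 to 7682 TPM in the heterozygous Th-MYCN ganglia, against 944 to 3996 TPM in tumors. Of the 8 proliferation markers, 1 was called lower in the wild-type and 8 in the heterozygous ganglia, with sums of 131 to 1282 and 99.2 to 278 TPM. Of the 18 neuron markers, 9 were called higher in the wild-type ganglia, and 11 higher and 1 lower in the heterozygous ganglia. Skeletal muscle markers were called higher in 5 of 7 tested in the wild-type and 1 of 7 in the heterozygous ganglia, with sums of 29.8 to 190 and 11.8 to 19.2 TPM. Adrenal cortex markers were called higher in 1 of 6 and 5 of 6 tested, with sums of 7.9 to 15.6 and 16.1 to 63.8 TPM, against 3.05 to 5.61 TPM in tumors. The part of these differences in the channel results was not tested.

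The Runx1t1 comparisons asked whether loss of a Runx1t1 copy changes the channel genes. In Th-MYCN ganglia, edgeR called 0 members between heterozygous and wild-type, against 0.012% of all genes, with 6 members at an unadjusted p under 0.05, against 12.6% of all genes. DESeq2 called 2 members, Cacng4 and Scn11a, against 1.58% of all genes. Cacng4 was 9.22 and 14.4 CPM in heterozygous and 42.6, 17.1 and 38.3 CPM in wild-type Th-MYCN ganglia. The groups did not overlap, and the log2 difference, heterozygous over wild-type, was -1.47 (SE 0.41, edgeR adjusted p = 0.273). Scn11a was 19.9 and 9.65 CPM in heterozygous and 2.84, 3.24 and 5.06 CPM in wild-type ganglia, also apart, with a difference of 1.98 (SE 0.52, edgeR adjusted p = 0.25). DESeq2 gave adjusted p = 0.031 for Cacng4 and 0.00982 for Scn11a. In the same libraries the neuron marker sums were 20212 to 22005 TPM in heterozygous and 12765 to 16763 TPM in wild-type ganglia. Chromaffin marker sums were 5215 to 7502 and 1845 to 2553 TPM, with a median log2 difference over the 5 markers of 0.45. Skeletal muscle marker sums were 11.8 to 19.2 and 29.8 to 190 TPM. Adrenal cortex marker sums were 16.1 to 63.8 and 7.9 to 15.6 TPM. Of each of these lists edgeR called 0 markers, and the part of these differences was not tested.

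In ganglia without MYCN, edgeR and DESeq2 each called 0 members between heterozygous and wild-type (0% of all genes by edgeR and 0.03% by DESeq2), with 2 members at an unadjusted p under 0.05, Cacna1i and Cacna2d4, against 4.07% of all genes. Wild-type replicate 2 was far above the others for both, at 28.7 CPM of Cacna1i and 2.69 CPM of Cacna2d4. The interaction, which tests whether the MYCN difference depends on the Runx1t1 genotype, gave 0 members by edgeR and by DESeq2 (0% of all genes by edgeR and 0.186% by DESeq2), with 4 at an unadjusted p under 0.05, against 5.6% of all genes. Those were Cacng4, Scn11a, Cacng3 and Cacna1c, and the interaction of Cacng4 was -1.44 on the log2 scale (SE 0.51, edgeR adjusted p = 0.849). That the MYCN difference of Cacng4 was called in wild-type and not in heterozygous ganglia therefore does not show that the genotypes differ.

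Proteins that bind, place or regulate these channels were followed as a list of 41 genes, of which 39 had a row. In tumors against Runx1t1 wild-type ganglia without MYCN, 27 of the 39 were called by edgeR, 9 higher and 18 lower, with a median log2 fold change of -0.73, against 57.6% of all genes called, 26.9% higher and 30.7% lower. Of genes that place channels at initial segments and nodes, Ank2 (-2.22), Cntn1 (-2.90) and Nrcam (-1.65) were lower and the cell adhesion gene Nfasc (0.91) higher, while Ank3, the ankyrin G gene, was not called (-0.30). The intracellular sodium channel partners Fgf12 and Fgf14 were lower, by -1.74 and -2.79, and Fgf13 was not called.

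Of 6 presynaptic partners of Cav2 channels on the list, 4 were called lower in tumors, 1 was called higher, and Rims1 was not called, beside the 30.7% of all genes called lower and 26.9% called higher. Syt1, the fast calcium sensor of release, had a log2 fold change of -3.77, Stx1a -1.78, Snap25 -1.25 and Rimbp2 -1.95, while the active zone gene Rims2 was higher at 0.99. Of inhibitors of calcium channels from the RGK family, Rem1 was lower (-2.85) and Rem2 higher (2.37). The channel modulators Stac and Stac2 likewise differed in direction, at -3.81 and 3.47. In the sodium leak channel complex Nalcn (-0.89) and Unc80 (-0.82) were lower and Unc79 (1.12) higher.

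The list also held the repressor REST and its corepressors, which silence neuronal genes, channel genes among them. Rest was 22.2 TPM on average in the Runx1t1 wild-type ganglia without MYCN and 2.57 TPM in tumors, a log2 fold change of -2.73 (SE 0.47, edgeR adjusted p = 2.44e-04). Rcor2 was 10.045 and 131 TPM, a log2 fold change of 4.14 (SE 0.54, edgeR adjusted p = 3.30e-05). Hdac1 and Hdac2 were higher, at 1.09 and 1.34, and so was Rcor1, at 0.78. Between Th-MYCN and transgene-free Runx1t1 wild-type ganglia, edgeR called 0 of the 39, with 4 at an unadjusted p under 0.05, and DESeq2 called 2 (Rcor2 and Hdac2), against 19.8% and 7.71% of all genes.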

How the data were processed

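RNA was isolated as total RNA and sequenced from SMARTer stranded total RNA libraries (NovaSeq) per the protocol in the labels, whose molecule field names polyA RNA instead, a conflict that could not be settled here. Reads were processed by the authors, who aligned reads with STAR to mm10 and ran SAMtools and RSEM per the submitters' processing notes. The annotation and the use of strand in counting are not given in the sources used here. The deposited tables hold RSEM expected counts per gene, which the authors did not normalize, and TPM, which they scaled by length and library. The tables held 0 columns that belong to no sample.

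Expected counts were rounded. Genes passed edgeR's filterByExpr by group, counts were TMM-scaled, and all 5 groups entered a single robust quasi-likelihood fit (edgeR 4.0.16, limma 3.58.1, R 4.3.3) with 8 contrasts. P-values were adjusted by Benjamini-Hochberg over all 16665 genes, with calls at 0.05, and the scripts were tested on simulated data. Figures used matplotlib 3.10.9, and tables pandas 2.3.3 and numpy 2.4.6 (Python 3.11.15). Groups came from the sample titles and characteristics, and "Hom" in the sample names was read as homozygous Runx1t1 wild-type. Pooled ratios of genes with few counts carry exact conditional binomial (Clopper-Pearson) intervals, which cover counting error only. Libraries of the same replicate number in the wild-type ganglia without MYCN and the tumors deviated from their group means together, with correlations of 0.148 to 0.319 in all 4 pairs, and 7 of the 8 libraries correlated best with their own number. The labels name no shared animal, litter or day, so this pairing rests on the correlations alone. Other pairs of groups with 3 shared numbers had 0 or 1 correlations over 0.1. Shares were taken of class TPM sums, and no test was run on them.

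The members and gene lists were chosen with earlier results of these data known. Per-library values are given for the 2 members of each class with the highest mean TPM, the 5 largest rises and the 5 largest falls in tumors among called members that averaged 1 TPM or more, and any member called within ganglia. Beside these 21 members, others are described by ranges or were named after their values were seen, and 2 members, which enter the counts, class sums and shares, are not reported here by name. Alternatives were upper-quartile scaling, DESeq2 1.42.0, other filters, only the groups compared, a replicate block, a depth term, all 7 transgene-free ganglia as control and leaving out each library. A replicate block in the 2 groups of the tumor comparison alone, a fit of only the libraries over 20000000 counts and a sodium channel sum with Scn2a1 were added after the data were seen. Position annotation was GENCODE vM21.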

Additional observations from a re-analysis of the deposited data

Results flagged for a closer look

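Within the groups of 4 libraries, each member's highest and lowest value was compared with the others by Dixon's gap ratio, over 70 member and group pairs. In 9 of them a library stood far from the rest. The cutoff is passed in about 1 in 20 groups of independent, normally distributed values. Members measured in the same libraries are not independent and some lie near the floor, so the 9 cannot be set against that rate.

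Ganglion replicate 2 without MYCN (Runx1t1 wild-type) accounted for 4. It was the highest for Cacna1i (28.7 CPM, next 1.02), Cacna2d4 (2.69 CPM, next 0.400) and Scn4a (7.72 CPM, next 0.561), and the lowest for Cacna2d2 (34.7 CPM, next 58.0). It was also the library with the high lymphocyte, myeloid, endothelial and proliferation marker sums, and the part of those in these values was not tested. In the same group, replicate 3 was the highest for Scn7a (549 CPM, next 214).

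Tumor replicate 1 was the highest tumor for Cacna1b (231 CPM, next 101), Cacng2 (11.1 CPM, next 3.09) and Scn3b (156 CPM, next 27.5). Its neuron marker sum was 13244 TPM, above the other tumors, and the part of that was not tested. For Scn4b, tumor replicate 2 held 0.0282 CPM, which is 1 count, and the other tumors 0, values that fix the gap ratio at its maximum.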

How the results depend on the processing

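In tumors against Runx1t1 wild-type ganglia without MYCN, 22 to 29 of the members tested were called under the alternatives (24 to 29 when a library was left out), against 47.6 to 65.2% of all genes (53.1 to 58.7% when a library was left out), and 19 of the 27 called members kept the call in each alternative that could test them. Cacna1b, Cacna1e, Cacna1s, Cacna2d1, Cacnb4, Cacng5, Scn3b and Scn4a lost it in some. Of the 19 members called for Th-MYCN wild-type ganglia against tumors, 14 kept the call in each alternative and 5 lost it in some. For the heterozygous ganglia against tumors, 14 of the 25 called members kept the call and 11 lost it in some. No called member changed direction in any alternative run.

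For MYCN in Runx1t1 wild-type ganglia, the count of 1 became 3 with DESeq2 (Cacng4, Cacna1d and Scn11a), 2 with the depth term (against 7.71% and 1.71% of all genes), and 0 with the replicate block, with only the groups compared and with only libraries over 20000000 counts. It was 0 to 4 when a library was left out: 0 without ganglion replicate 1, 3 or 4 of those lacking MYCN or Th-MYCN replicate 1 or 4, and 4 without Th-MYCN replicate 3, where 10.8% of all genes were called. For Th-MYCN wild-type ganglia against tumors it was 15 to 25 over all alternatives, in which 21.3 to 43% of all genes were called. For the heterozygous ganglia against tumors it was 15 to 26 when a library was left out, against 24.9 to 45.7% of all genes. For Runx1t1 in Th-MYCN ganglia it was 2 with DESeq2 and 0 to 1 when a library was left out, the 1 (Cacng4, log2 difference -1.78, edgeR adjusted p = 0.0365) without wild-type replicate 3, where 2.01% of all genes were called. The causes were not tested.

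In CPM in place of TPM, the ratio of tumors to ganglia without MYCN was 0.430 for sodium channel pores, 2.79 for Cav1, 0.407 for Cav2, 0.280 for Cav beta and 1.14 for alpha2delta sums. For single members, the log2 ratio of mean TPM in tumors over Runx1t1 wild-type ganglia without MYCN was compared with edgeR's fold change. The signs matched in 27 of the 27 called members and 6 of the 10 not called. For Cacna2d1, Scn8a and Scn9a the log2 TPM ratios were 0.39, 0.68 and -2.01, against 0.82, 1.10 and -1.58 by edgeR.

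Cacna1h, with a log2 fold change near 0 in tumors, took -0.0095 with upper-quartile scaling, -0.0264 with at least 10 counts in every library, -0.0020 with the replicate block, -0.0362 with the depth term, -0.0151 with all 7 ganglia as control, -0.0063 with only the groups compared, -0.14 with these and the replicate block, and -0.29 with only libraries over 20000000 counts. Leaving out a library gave -0.43 to 0.28. Leaving out a library gave -0.29 to 3.71 for Cacna1i in tumors and -0.0719 to 0.58 for Cacng4 with MYCN in heterozygous ganglia.

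With replicate number as a block, 28, 0, 0, 18, 24, 0, 0 and 0 members were called in the 8 contrasts in the order tumors against ganglia, MYCN in wild-type, MYCN in heterozygous, Th-MYCN wild-type and heterozygous ganglia against tumors, Runx1t1 with and without MYCN, and interaction. In the same order the block left 55.7, 0, 0, 30.2, 45.5, 0.006, 0 and 0% of all genes called. The block added Cacna2d4 and Cacng2 and lost Cacna1s in the first contrast. In a fit of the 2 groups of that contrast alone, chosen after the data were seen, the block left 24 of 34 members tested called, against 51.4% of all genes. Outside that pair of groups, libraries with the same number deviated with correlations of -0.315 to 0.236. The 2 heterozygous Th-MYCN libraries held under 20000000 counts.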
